A study of Mus musculus with 22 samples.

Results

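The genes described are 43 members of the amino acid stress programme run by the transcription factor ATF4, out of 24353 gene symbols in each of 2 deposited expression tables, and all 43 were found in both. They were chosen by function, from known ATF4 targets and their partners, at a time when CHAC1, SESN2 and TRIB3 were already known to be higher in CD45-negative cells of the 3-drug group than in vehicle. The values of these 3 genes in CD45-negative libraries, and the whole contrast of the 3-drug group with vehicle in that fraction, are therefore given as a description: differences and counts past the threshold are stated with no p for a gene, and nothing is read from them. The members fall into 10 stress regulators, 5 enzymes of serine, glycine and one-carbon metabolism, 6 enzymes of proline, asparagine, cysteine and phosphoenolpyruvate synthesis, 8 amino acid transporters, 2 secreted or surface proteins and 12 cytosolic tRNA synthetases.

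ATF4 is the effector of the integrated stress response. When amino acids run short, haem is lacking, virus is sensed or unfolded proteins build up, a kinase phosphorylates the initiation factor eIF2 alpha; general protein synthesis drops, while the mRNA of ATF4 is translated better. ATF4 then pairs with C/EBP proteins and switches on genes that import amino acids, make serine, glycine, proline and asparagine, charge tRNAs and, under lasting stress, promote cell death through DDIT3 (CHOP). Because ATF4 is controlled largely by translation, its mRNA and the RNA of its targets need not move together.

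The study measured bulk RNA of EMT6 tumours, a mouse mammary carcinoma line grown from 200000 cells in each inguinal fat pad of wild-type BALB/c mice aged 5 to 6 weeks. Tumours were split into CD45-negative cells (12 libraries) and CD45-positive leukocytes (10 libraries). The groups were vehicle, JQ1 alone, JQ1 with anti-PD-L1, JQ1 with paclitaxel, and all 3 drugs, with 2 libraries a group, except 3 CD45-negative libraries each for JQ1 with paclitaxel and for the 3-drug group. JQ1, an inhibitor of BET bromodomain proteins, was given at 50 mg/kg daily, and paclitaxel, which stabilises microtubules, and anti-PD-L1, a checkpoint antibody, by 2 weekly injections of 10 mg/kg each. All treated groups received JQ1, so paclitaxel and anti-PD-L1 were seen only on top of it. The labels carry a code per tumour. Groups without paclitaxel each hold 1 mouse code with a right and a left tumour, read here as 1 animal, which no label states outright, so their spread may be that within an animal; the 3 CD45-negative libraries of JQ1 with paclitaxel and of the 3-drug group carry 3 codes each. Read totals were not given, but steps between low values put relative depth at 0.547 to 1.79 in CD45-negative and 0.629 to 1.71 in CD45-positive libraries. The fractions matched their labels in part: the CD45 gene PTPRC had a median of 3.77 FPKM (fragments per kilobase of gene, scaled for library depth, the unit inferred from the values) in CD45-negative and 48.0 in CD45-positive libraries, and the keratin gene KRT8 451 and 17.5, while macrophage genes such as LYZ2 were present in every CD45-negative library. In bulk RNA, fewer cells of a type and less RNA per cell cannot be told apart.

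ATF4 binds with C/EBP partners at elements with the core TGATGNAA. Promoter windows of RefSeq (GRCm38.p6, 250 bases before to 50 after each start) were matched for 35 members, MARS by its RefSeq symbol Mars1; CTH, SLC7A5, SLC7A3, SLC1A5, NARS, WARS, CARS and LARS had no entry. The core was found on either strand in 15 of the 35 (42.9%), and in 4.51% of 27025 genes with such windows. Its form TGATGCAA, which is contained in the first search, was in 11 of 35 (31.4%), against 1.03% of genes. Counting only bases before the start left 11 of 35 (31.4%), against 3.91%. The list was drawn from known ATF4 targets and their partners. A higher share than over all genes could follow from that choice, so nothing is read from it. The 8 stretches shown belong to members whose values are described below and carry the core in capitals, read 5′ to 3′ on the gene's strand, so that a core on the other strand reads TTNCATCA. A match is a description of letters, not a shown binding site or a cause. For AARS (chr8:111033710-111033757, plus strand), ASNS (chr6:7693210-7693252, minus), CHAC1 (chr2:119351029-119351076, plus), GARS (chr6:55037951-55037998, plus), PCK2 (chr14:55540143-55540190, plus) and TARS (chr15:11399659-11399693, minus) the stretch shown has the core before the start; AARS holds a second core, TGATGAAA, after its start. For TRIB3 (chr2:152344028-152344057, minus) and YARS (chr4:129189895-129189924, plus) it lies in the first transcribed bases.
AARS: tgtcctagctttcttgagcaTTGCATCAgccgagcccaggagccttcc
TRIB3: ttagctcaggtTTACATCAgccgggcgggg
ASNS: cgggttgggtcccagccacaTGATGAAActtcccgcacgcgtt
PCK2: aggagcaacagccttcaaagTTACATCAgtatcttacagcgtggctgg
YARS: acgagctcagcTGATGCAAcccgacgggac
CHAC1: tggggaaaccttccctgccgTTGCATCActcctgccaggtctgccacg
TARS: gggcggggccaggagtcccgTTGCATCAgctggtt
GARS: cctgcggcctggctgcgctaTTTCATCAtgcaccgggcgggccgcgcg
The core stood in 5 of 13 members with a window that were lower under JQ1 with paclitaxel, and in 8 of 19 that were higher once anti-PD-L1 was added. Among all members with a window it stood in 15 of 35 (42.9%). The called members are part of these 35, so such small counts cannot decide whether the core marks them out. The 8 include TRIB3 and CHAC1, which are given as a description.

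In CD45-negative cells the metabolic and tRNA-charging members were lowest under JQ1 with paclitaxel, and the feedback genes TRIB3, CHAC1 and SESN2 were highest in the 3-drug group. Of the 43 members, 38 passed the filter on low values (at least 1 FPKM in at least 2 libraries); CTH, CBS, SLC7A3, VLDLR and STC2 did not. The mean was lowest under JQ1 with paclitaxel for 26 of these 38, and highest in the 3-drug group for 18 and under JQ1 alone for 12. The same counts were not made over all genes. The median difference of the 38 from the vehicle mean was −0.47, −0.50 and −0.45 on the log2(FPKM + 1) scale in the 3 libraries of JQ1 with paclitaxel. It was 0.31, 0.08 and 0.13 in the 3-drug libraries, 0.02 and 0.15 under JQ1, and −0.14 in both libraries of JQ1 with anti-PD-L1. The heat map of all 38 by library shows these differences.

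**Figure D1:**
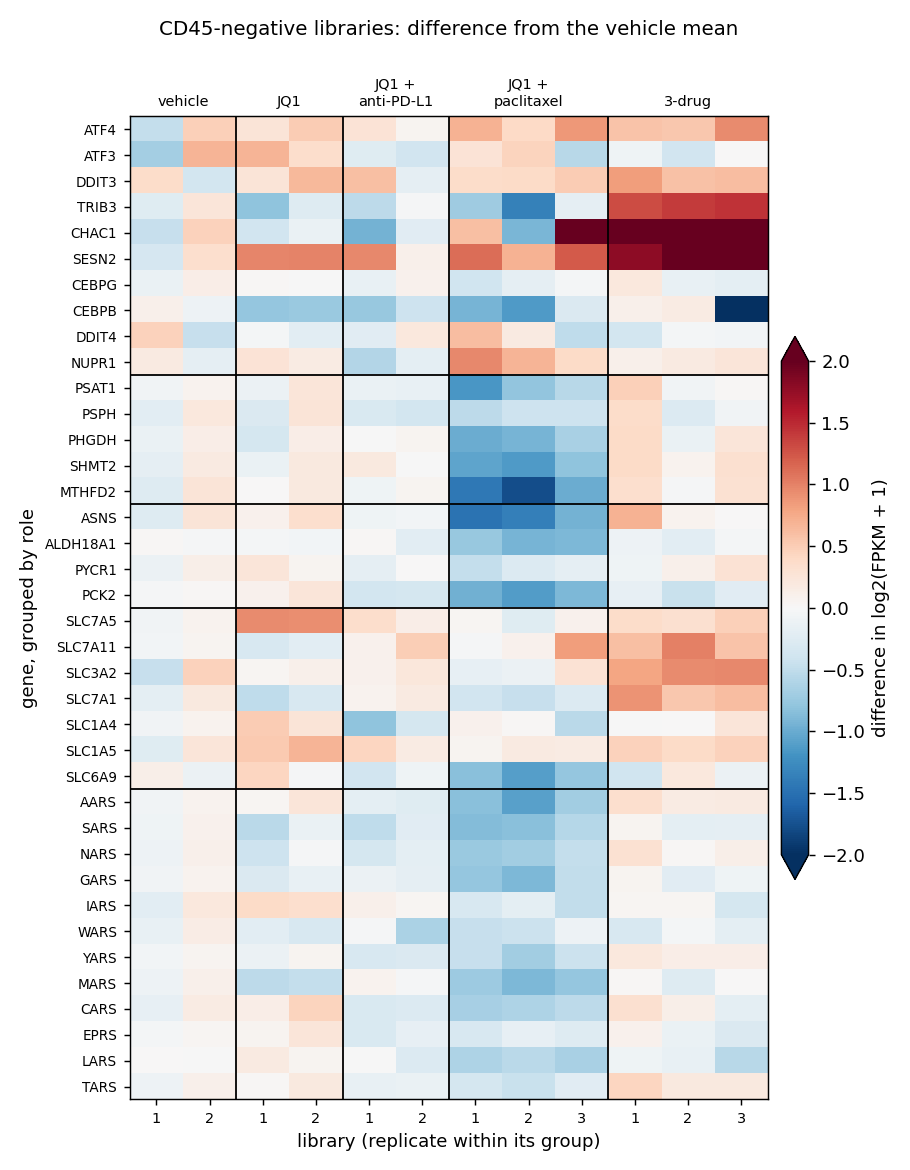
Heat map of the 38 members that passed the filter (rows, grouped by role) in the 12 CD45-negative libraries (columns, grouped by treatment). Colour is the difference from the vehicle mean in log2(FPKM + 1), red higher and blue lower, with values past 2 or −2 at the end colours; the 3 libraries of JQ1 with paclitaxel are blue across the enzymes and synthetases, and the 3-drug libraries are red at TRIB3, CHAC1 and SESN2.

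Under JQ1 with paclitaxel much of the biosynthetic and tRNA-charging arm was lower than with vehicle. Tests used limma on log2(FPKM + 1), with p-values adjusted over all 10780 genes tested in this fraction, a call being an adjusted p under 0.05, and all differences below are on that log2 scale with a standard error. Under JQ1 with paclitaxel 16 of 38 members fell (42.1%), where 12.3% of all genes fell, and 2 were called higher (5.26%), NUPR1 and SESN2, where 5.29% of all genes rose. Without CHAC1, SESN2 and TRIB3, 16 of 35 fell (45.7%) and 1 rose (2.86%). By role, 4 of 5 serine, glycine and one-carbon enzymes fell, 3 of the 4 tested enzymes of the next group, 1 of 7 tested transporters, 8 of 12 synthetases and 0 of 10 regulators. The median over the 38 members was −0.41, and over all genes −0.07. In 15 of the 16, all but LARS, the 3 libraries lay below all 9 other libraries of the fraction. The 16 were picked as lower in these same libraries, and this count was not made over all genes. These calls depended on the 2 vehicle tumours: without vehicle replicate 1 or 2, 11 and 8 members were called, and with 1 value per mouse code 3 were (MTHFD2, SHMT2 and ALDH18A1).

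Where anti-PD-L1 was added to JQ1 with paclitaxel, members of that arm were higher again, in the comparison whose libraries carry separate mouse codes. Of 38 members 22 rose (57.9%), where 9.09% of all genes did, and 0 fell by limma, where 6.79% of all genes did; 26 had an unadjusted p under 0.05. Leaving aside CHAC1, SESN2 and TRIB3, 19 of 35 rose (54.3%) and 23 (65.7%) had an unadjusted p under 0.05, where 31.8% of all genes did. By role, among all 38, 3 of 10 regulators rose, and these were CHAC1, SESN2 and TRIB3 themselves. So did 4 of 5 serine, glycine and one-carbon enzymes and 3 of 4 of the next group. Of transporters 4 of 7 rose, and of synthetases 8 of 12. The median over the 38 was 0.64, and over all genes 0.01. With 1 value per mouse code 21 members were called. This comparison shares the libraries of JQ1 with paclitaxel with the one against vehicle, so a low value there enters both. It also uses the 3-drug libraries in which CHAC1, SESN2 and TRIB3 were known to be high when the list was drawn up. Its counts are therefore not free of that choice.

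**Figure D2:**
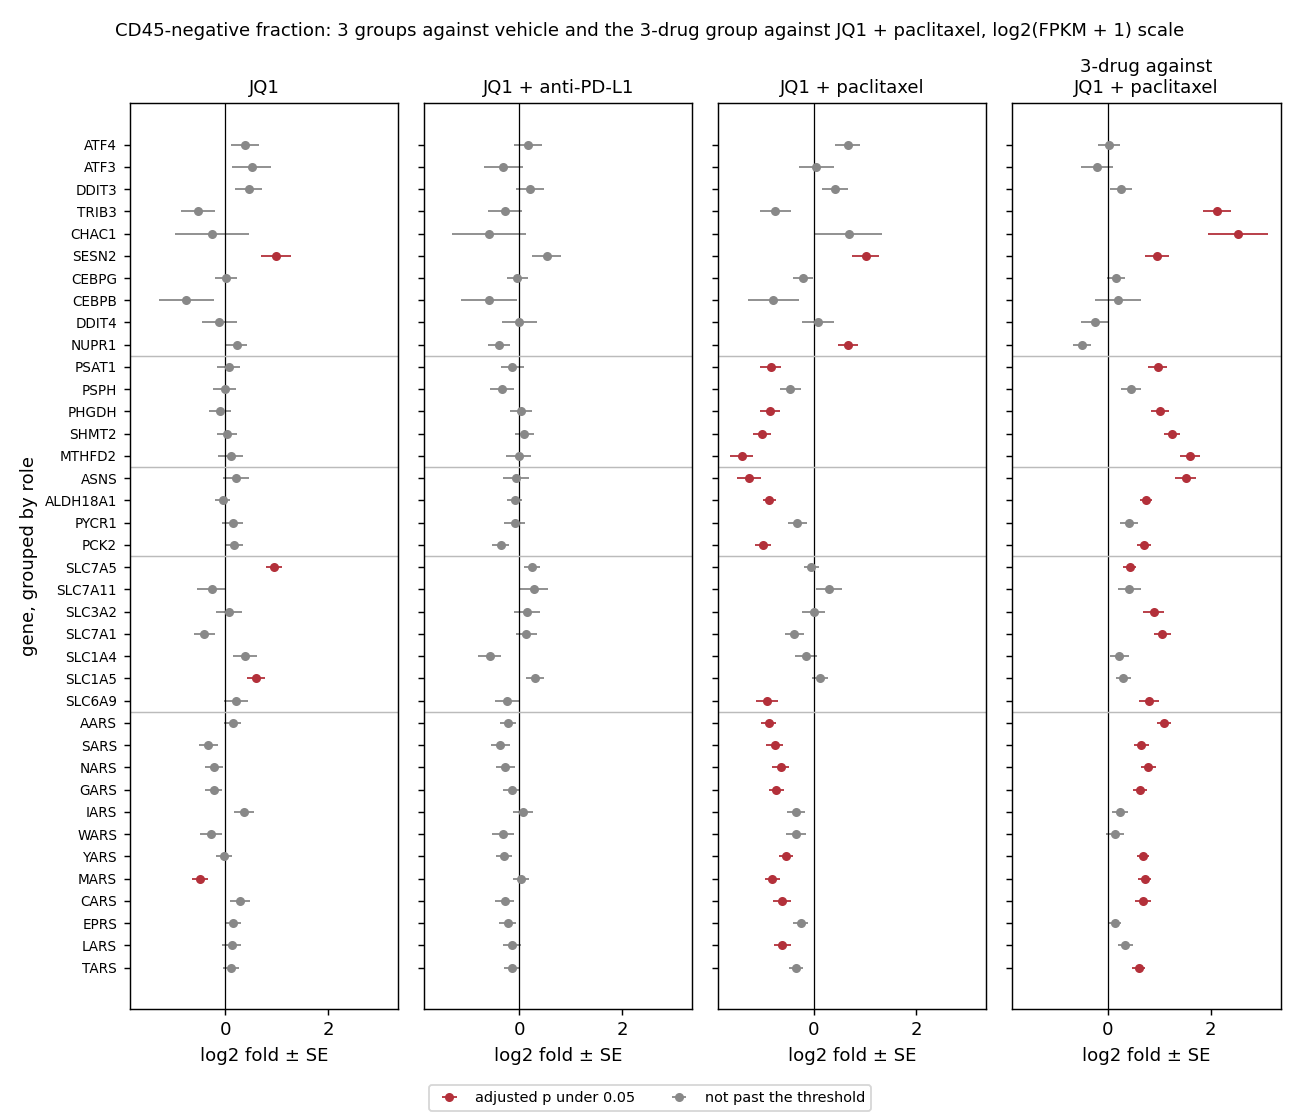
Differences in log2(FPKM + 1) with standard errors (horizontal axis) for the 38 members in CD45-negative cells, in 4 comparisons: JQ1, JQ1 with anti-PD-L1 and JQ1 with paclitaxel each against vehicle, and the 3-drug group against JQ1 with paclitaxel. Red marks an adjusted p under 0.05; 16 members stand to the left of 0 in red under JQ1 with paclitaxel, and 22 to the right in the last panel, of which CHAC1, SESN2 and TRIB3 are a description only.

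Among the stress regulators, ATF4 itself read 98.7 and 194 FPKM with vehicle, 166 and 197 with JQ1, 168 and 144 with JQ1 and anti-PD-L1, 226, 183 and 254 with JQ1 and paclitaxel, and 207, 202 and 266 in the 3-drug group. The lowest value was a vehicle library, all 3-drug libraries were above those of the 3 groups without paclitaxel, and those of JQ1 with paclitaxel were above JQ1 with anti-PD-L1 and overlapped the rest. ATF4 differed from vehicle by 0.66 ± 0.25 under JQ1 with paclitaxel (adjusted p = 0.0854, limma), and anti-PD-L1 on top moved it by 0.03 ± 0.22 (adjusted p = 0.947). DDIT3, the gene of the pro-apoptotic factor CHOP, read 19.1 and 11.2 FPKM in the vehicle libraries, 17.7 and 23.4 under JQ1, 22.7 and 12.8 under JQ1 with anti-PD-L1, 19.1, 19.3 and 21.3 under JQ1 with paclitaxel, and 27.0, 22.6 and 22.9 under all 3 drugs. All 3-drug values exceeded those of vehicle and of JQ1 with paclitaxel, and the latter exceeded vehicle by a narrow gap, while both other groups overlapped vehicle; the difference on adding anti-PD-L1 was 0.26 ± 0.22 (adjusted p = 0.438). DDIT3 lies next to MARS and overlaps it and Mbd6 in the annotation, and the counting is not stated to use strand.

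TRIB3, a pseudokinase that feeds back on ATF4 and restrains AKT, read 4.97 and 7.41 FPKM with vehicle, 3.05 and 4.91 with JQ1, 3.91 and 6.00 with JQ1 and anti-PD-L1, 3.34, 1.79 and 5.27 with JQ1 and paclitaxel, and 16.5, 17.7 and 18.3 in the 3-drug group. The 3-drug libraries stood above every other library, both JQ1 libraries were just under both vehicle ones, and the remaining groups overlapped vehicle. TRIB3 was higher by 1.38 ± 0.30 in the 3-drug group than with vehicle and by 2.12 ± 0.27 than under JQ1 with paclitaxel. CHAC1, which degrades glutathione, read 2.90 and 6.46 FPKM in the vehicle libraries, 3.13 and 3.93 under JQ1, 1.80 and 3.59 under JQ1 with anti-PD-L1, 7.20, 1.85 and 26.7 under JQ1 with paclitaxel, and 46.7, 63.7 and 39.9 under all 3 drugs. All 3-drug values were above the rest, but replicate 3 of JQ1 with paclitaxel, at 26.7 FPKM, was far above its own group's others. CHAC1 was higher by 3.22 ± 0.65 in the 3-drug group than with vehicle and by 2.54 ± 0.59 than under JQ1 with paclitaxel. Against vehicle, the 3-drug group had 3 of 38 members called higher (background 0.584%), these 2 and SESN2, and 0 called lower (background 1.05%). In either direction 10 members had an unadjusted p under 0.05 by limma, and 7 of 35 without these 3, where 19.6% of all genes did; this is the contrast that chose the list.

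SESN2, a leucine sensor that restrains mTORC1, read 11.8 and 19.4 FPKM with vehicle, 30.8 and 31.3 with JQ1, 30.6 and 16.3 with JQ1 and anti-PD-L1, 34.2, 25.2 and 36.6 with JQ1 and paclitaxel, and 54.7, 63.2 and 70.5 in the 3-drug group. Both JQ1 libraries and all libraries with paclitaxel were above both vehicle libraries, the 3-drug values were highest, and JQ1 with anti-PD-L1 overlapped vehicle. SESN2 was higher than vehicle by 0.99 ± 0.28 under JQ1, 1.01 ± 0.26 under JQ1 with paclitaxel and 1.97 ± 0.26 in the 3-drug group. NUPR1, a small stress-induced chromatin protein, read 331 and 256 FPKM in the vehicle libraries, 352 and 326 under JQ1, 193 and 253 under JQ1 with anti-PD-L1, 565, 464 and 380.1 under JQ1 with paclitaxel, and 312, 329.6 and 345 under all 3 drugs. The 3 libraries of JQ1 with paclitaxel were above all others. NUPR1 rose by 0.67 ± 0.19 there (adjusted p = 0.0291, limma), and the 3-drug group was −0.50 ± 0.17 from it (adjusted p = 0.0635). The remaining regulators passed no threshold in any CD45-negative comparison: ATF3 ranged over 33.2 to 86.3 FPKM (median 52.3), CEBPG, the dimer partner, over 1.75 to 3.19 FPKM (median 2.42), CEBPB over 83.1 to 381 FPKM (median 228) and DDIT4, an mTORC1 inhibitor, over 9.05 to 21.0 FPKM (median 12.9). The plot of 5 regulators shows their levels in both fractions.

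**Figure D3:**
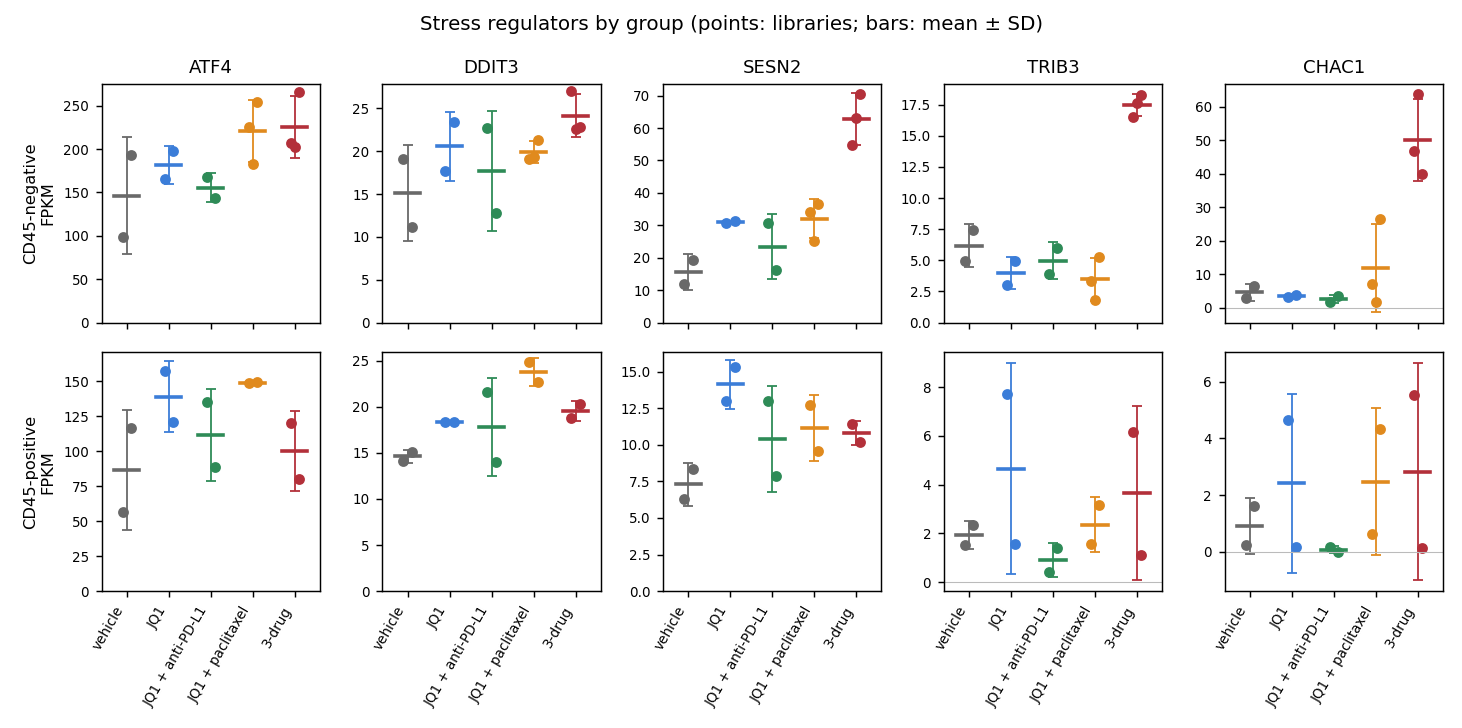
FPKM (vertical axis) of ATF4, DDIT3, SESN2, TRIB3 and CHAC1 in the 5 treatment groups, CD45-negative above and CD45-positive below. Points are libraries and bars the mean ± SD; the 3-drug CD45-negative libraries of TRIB3, CHAC1 and SESN2 lie above every other library of that fraction, while the ATF4 values of the vehicle pair alone run from 98.7 to 194.

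Serine is made by PHGDH, PSAT1 and PSPH, and SHMT2 and MTHFD2 pass its carbon to the mitochondrial folate pool. PHGDH, the first step, read 108 and 131 FPKM with vehicle, 92.4 and 130.5 with JQ1, 118 and 124 with JQ1 and anti-PD-L1, 59.1, 61.9 and 75.6 with JQ1 and paclitaxel, and 154, 108 and 141 in the 3-drug group. Each library of JQ1 with paclitaxel was below all others. PHGDH fell by 0.85 ± 0.19 against vehicle (adjusted p = 0.0111, limma) and was 1.01 ± 0.17 higher with anti-PD-L1 added (adjusted p = 0.00309). PSAT1, the transaminase of the pathway, read 46.9 and 51.5 FPKM in the vehicle libraries, 45.2 and 58.4 under JQ1, 44.9 and 44.1 under JQ1 with anti-PD-L1, 21.4, 28.1 and 33.2 under JQ1 with paclitaxel, and 68.7, 46.7 and 49.7 under all 3 drugs. Again no library of JQ1 with paclitaxel reached any other library. The differences of PSAT1 were −0.83 ± 0.20 against vehicle (adjusted p = 0.0159) and 0.97 ± 0.18 on adding anti-PD-L1 (adjusted p = 0.00483).

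SHMT2 read 50.5 and 64.6 FPKM with vehicle, 51.9 and 65.9 with JQ1, 65.6 and 57.0 with JQ1 and anti-PD-L1, 26.9, 25.6 and 32.4 with JQ1 and paclitaxel, and 74.7, 60.3 and 71.7 in the 3-drug group. The drop under JQ1 with paclitaxel brought all 3 libraries below the rest, and the 3-drug libraries overlapped vehicle. SHMT2 differed by −0.99 ± 0.17 (adjusted p = 0.0027, limma) and by 1.26 ± 0.15 on adding anti-PD-L1 (adjusted p = 0.000525); it overlaps Ndufa4l2 in the annotation. MTHFD2, one of the enzymes most often raised in tumours, read 20.3 and 29.3 FPKM in the vehicle libraries, 24.6 and 28.0 under JQ1, 23.0 and 25.4 under JQ1 with anti-PD-L1, 8.44, 6.44 and 11.8 under JQ1 with paclitaxel, and 31.1, 23.9 and 30.3 under all 3 drugs. Its values under JQ1 with paclitaxel were again below every other library, with no overlap. MTHFD2 fell by 1.39 ± 0.22 against vehicle (adjusted p = 0.00174), the largest fall among the members, and rose by 1.60 ± 0.20 when anti-PD-L1 was added (adjusted p = 0.000582). PSPH, the phosphatase, ranged over 19.2 to 36.5 FPKM (median 23.0) and passed no threshold.

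In the next group, ASNS, which makes asparagine and is a classical ATF4 target, read 33.1 and 48.2 FPKM with vehicle, 42.4 and 50.8 with JQ1, 37.8 and 38.7 with JQ1 and anti-PD-L1, 13.8, 15.0 and 20.3 with JQ1 and paclitaxel, and 65.2, 42.3 and 40.0 in the 3-drug group. The libraries of JQ1 with paclitaxel were below all others, and 3-drug replicate 1 was above all others. ASNS fell by 1.26 ± 0.23 against vehicle (adjusted p = 0.00355, limma) and rose by 1.52 ± 0.21 with anti-PD-L1 added (adjusted p = 0.000998); the core in its promoter stretch is shown above. ALDH18A1, which starts proline synthesis from glutamate, read 37.7 and 36.4 FPKM in the vehicle libraries, 36.0 and 35.7 under JQ1, 37.8 and 31.9 under JQ1 with anti-PD-L1, 21.5, 19.0 and 19.5 under JQ1 with paclitaxel, and 34.6, 32.0 and 35.8 under all 3 drugs. The 9 libraries outside JQ1 with paclitaxel lay close together, and the 3 inside it were well below. ALDH18A1 differed by −0.86 ± 0.13 (adjusted p = 0.00148) and by 0.74 ± 0.12 on adding anti-PD-L1 (adjusted p = 0.00242).

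PCK2, the mitochondrial enzyme that makes phosphoenolpyruvate, read 8.77 and 9.01 FPKM with vehicle, 9.52 and 10.7 with JQ1, 6.65 and 6.73 with JQ1 and anti-PD-L1, 4.07, 3.56 and 4.33 with JQ1 and paclitaxel, and 7.85, 6.23 and 7.49 in the 3-drug group. The 3 libraries of JQ1 with paclitaxel were lowest, and the 3-drug libraries stayed below both vehicle libraries. PCK2 fell by 0.99 ± 0.16 (adjusted p = 0.00156, limma) and rose by 0.71 ± 0.14 on adding anti-PD-L1 (adjusted p = 0.00585). PYCR1, the last step to proline, was low in these cells at 0.991 to 2.38 FPKM (median 1.70) and passed no threshold. The transsulfuration genes CTH and CBS, which make cysteine from homocysteine, reached at most 0.656 and 0.394 FPKM and were not tested.

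**Figure D4:**
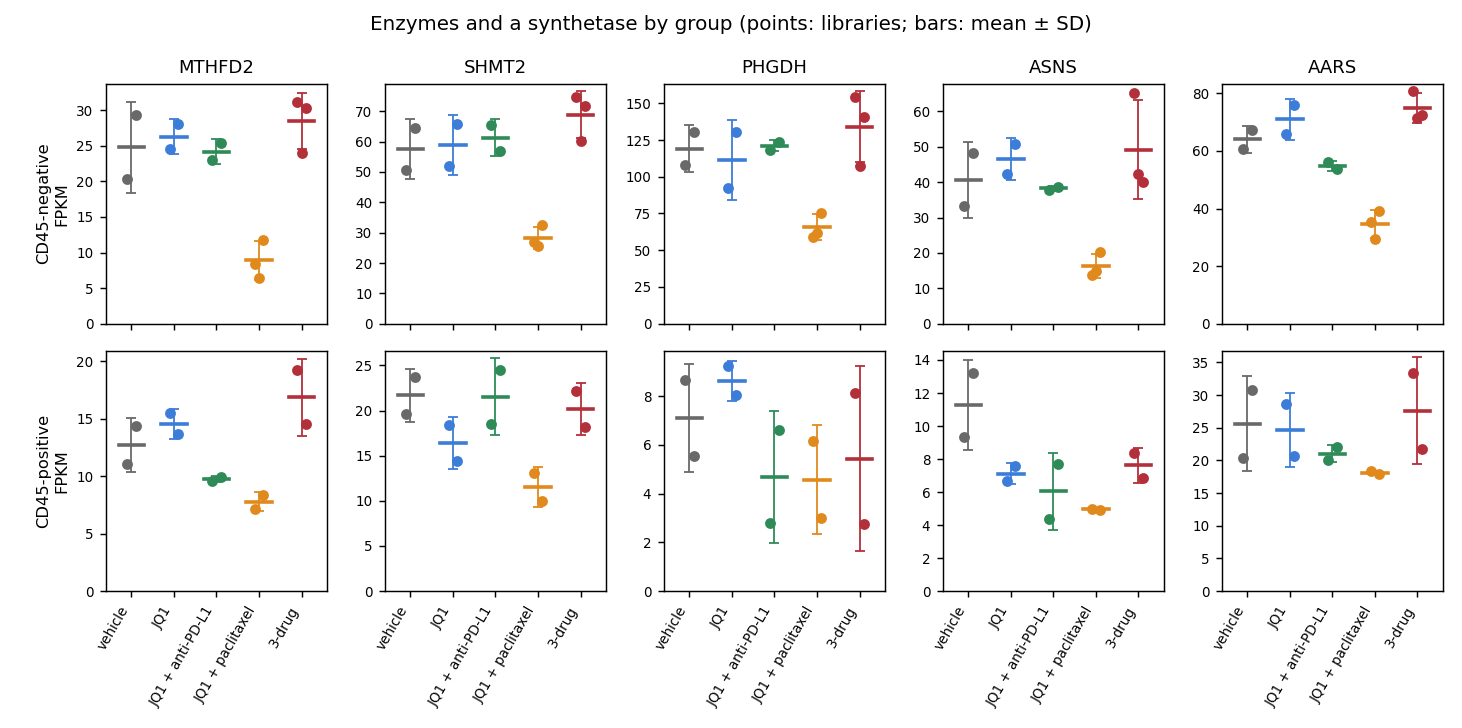
FPKM (vertical axis) of MTHFD2, SHMT2, PHGDH, ASNS and AARS in the 5 groups, CD45-negative above and CD45-positive below, with libraries as points and the mean ± SD as bars. In CD45-negative cells the 3 libraries of JQ1 with paclitaxel lie below all others for each gene; in CD45-positive cells levels are lower, as PHGDH under 10 FPKM throughout.

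Among the transporters, SLC7A5, which imports leucine and other large neutral amino acids, read 49.3 and 54.8 FPKM with vehicle, 101 and 99.7 with JQ1, 67.0 and 57.3 with JQ1 and anti-PD-L1, 53.2, 44.0 and 55.1 with JQ1 and paclitaxel, and 67.6, 64.9 and 72.4 in the 3-drug group. Both JQ1 libraries were well above all others. SLC7A5 rose by 0.94 ± 0.16 under JQ1 (adjusted p = 0.00291, limma), was −0.04 ± 0.14 from vehicle under JQ1 with paclitaxel (adjusted p = 0.869), and rose by 0.43 ± 0.13 on adding anti-PD-L1 to that pair (adjusted p = 0.0379). SLC3A2, the heavy chain that SLC7A5 and SLC7A11 need, read 64.9 and 124 FPKM in the vehicle libraries, 92.5 and 96.4 under JQ1, 94.8 and 105 under JQ1 with anti-PD-L1, 79.8, 82.4 and 110.3 under JQ1 with paclitaxel, and 156, 173 and 175 under all 3 drugs. All 3-drug values exceeded the rest. SLC3A2 rose by 0.89 ± 0.20 when anti-PD-L1 was added to JQ1 with paclitaxel (adjusted p = 0.0115).

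SLC7A1, the cationic amino acid transporter for arginine, read 1.90 and 2.81 FPKM with vehicle, 1.34 and 1.67 with JQ1, 2.51 and 2.79 with JQ1 and anti-PD-L1, 1.55, 1.43 and 1.74 with JQ1 and paclitaxel, and 5.23, 3.85 and 4.10 in the 3-drug group. The 3-drug libraries were highest without overlap, at a low level. SLC7A1 rose by 1.06 ± 0.17 with anti-PD-L1 added (adjusted p = 0.00227, limma). SLC1A5, a glutamine carrier, read 22.7 and 32.2 FPKM in the vehicle libraries, 39.5 and 43.9 under JQ1, 36.8 and 30.4 under JQ1 with anti-PD-L1, 28.1, 30.6 and 30.4 under JQ1 with paclitaxel, and 37.7, 35.5 and 37.8 under all 3 drugs. The JQ1 pair was highest, above all other libraries. SLC1A5 rose by 0.60 ± 0.17 under JQ1 (adjusted p = 0.0363). SLC6A9, a glycine transporter, read 7.21 and 6.01 FPKM with vehicle, 9.18 and 6.50 with JQ1, 4.81 and 6.12 with JQ1 and anti-PD-L1, 3.23, 2.52 and 3.43 with JQ1 and paclitaxel, and 4.73, 7.80 and 5.99 in the 3-drug group. The 3 libraries of JQ1 with paclitaxel were below all others. SLC6A9 fell by 0.91 ± 0.22 there (adjusted p = 0.0139, limma) and rose by 0.81 ± 0.19 on adding anti-PD-L1 (adjusted p = 0.015); it overlaps Ccdc24. SLC7A11, the cystine importer, ranged over 1.13 to 4.34 FPKM (median 1.81) and SLC1A4, a serine and alanine carrier, over 5.56 to 15.3 FPKM (median 10.6); neither passed a threshold. SLC7A3, VLDLR and STC2 stayed at or under 0.959 FPKM.

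JQ1 alone, then, left most members near vehicle. Of 38 members 3 were called higher (7.89%, background 5.09%), namely SLC7A5, SLC1A5 and SESN2, and 1 fell (2.63%, background 9.68%), MARS. Without CHAC1, SESN2 and TRIB3, 2 of 35 rose (5.71%), a share near the background. Without vehicle replicate 1, JQ1 replicate 1 or JQ1 replicate 2, and with relative depth in the fit, the count was 1, SLC7A5; with 1 value per mouse code it was 0. The call of MARS, close to the threshold, was kept in only 1 of 12 fits with a library left out (without 3-drug replicate 2), and its adjusted p in the other 11 was 0.0502 to 0.258 (limma). Both JQ1 libraries were shallower (relative depth 0.554 and 0.653) than both vehicle ones (1.79 and 1.13). JQ1 with anti-PD-L1 gave 0 calls among the members by limma, where 0.25% of all genes were called, and 1 member at an unadjusted p under 0.05, SLC1A4 (−0.58 ± 0.23, adjusted p = 0.272), where 14.4% of all genes were at that threshold.

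The 12 synthetases load cytosolic tRNAs with amino acids. AARS, for alanine, read 60.6 and 67.4 FPKM with vehicle, 66.0 and 75.9 with JQ1, 56.0 and 53.6 with JQ1 and anti-PD-L1, 35.2, 29.5 and 39.1 with JQ1 and paclitaxel, and 80.8, 71.5 and 72.3 in the 3-drug group. Every library of JQ1 with paclitaxel was below every other. AARS fell by 0.87 ± 0.15 (adjusted p = 0.00231, limma) and rose by 1.10 ± 0.13 on adding anti-PD-L1 (adjusted p = 0.000458), with the smallest p of the members there. SARS, for serine, read 105 and 117 FPKM in the vehicle libraries, 75.7 and 101 under JQ1, 77.4 and 94.2 under JQ1 with anti-PD-L1, 60.1, 61.5 and 74.2 under JQ1 with paclitaxel, and 115, 96.7 and 97.6 under all 3 drugs. The lowest values were again under JQ1 with paclitaxel, close to 1 JQ1 library. SARS differed by −0.76 ± 0.17 (adjusted p = 0.0097) and 0.65 ± 0.15 (adjusted p = 0.0124). NARS, for asparagine, read 86.3 and 99.6 FPKM with vehicle, 69.3 and 91.6 with JQ1, 72.6 and 80.9 with JQ1 and anti-PD-L1, 55.0, 56.6 and 66.6 with JQ1 and paclitaxel, and 115, 93.9 and 100.4 in the 3-drug group. Its libraries under JQ1 with paclitaxel were below the rest by a small gap. NARS differed by −0.64 ± 0.16 (adjusted p = 0.0185, limma) and 0.79 ± 0.14 (adjusted p = 0.00436).

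GARS, for glycine, read 84.5 and 93.0 FPKM in the vehicle libraries, 72.0 and 80.0 under JQ1, 81.3 and 78.1 under JQ1 with anti-PD-L1, 51.6, 46.8 and 62.8 under JQ1 with paclitaxel, and 92.0, 75.4 and 83.0 under all 3 drugs. All 3 libraries of JQ1 with paclitaxel were lowest. GARS differed by −0.72 ± 0.15 against vehicle (adjusted p = 0.00741, limma) and 0.63 ± 0.14 on adding anti-PD-L1 (adjusted p = 0.00904). YARS, for tyrosine, read 33.5 and 36.3 FPKM with vehicle, 32.2 and 36.3 with JQ1, 27.8 and 28.5 with JQ1 and anti-PD-L1, 25.2, 21.2 and 25.6 with JQ1 and paclitaxel, and 40.3, 38.5 and 38.5 in the 3-drug group. It too was lowest under JQ1 with paclitaxel, and the 3-drug libraries were above all others. YARS differed by −0.53 ± 0.13 (adjusted p = 0.0192) and 0.69 ± 0.12 (adjusted p = 0.0033). MARS, for methionine, read 30.2 and 34.9 FPKM in the vehicle libraries, 22.2 and 23.2 under JQ1, 34.3 and 31.9 under JQ1 with anti-PD-L1, 19.1, 16.9 and 18.6 under JQ1 with paclitaxel, and 32.8, 27.1 and 32.5 under all 3 drugs. Both JQ1 libraries and all 3 of JQ1 with paclitaxel were below the others, the latter lowest. MARS fell by 0.50 ± 0.15 under JQ1 (adjusted p = 0.0468, limma) and fell by 0.80 ± 0.14 under JQ1 with paclitaxel (adjusted p = 0.00293), and rose by 0.72 ± 0.13 on adding anti-PD-L1 (adjusted p = 0.00331).

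CARS, for cysteine, read 20.1 and 25.5 FPKM with vehicle, 25.0 and 31.2 with JQ1, 18.1 and 18.6 with JQ1 and anti-PD-L1, 13.9, 14.4 and 15.4 with JQ1 and paclitaxel, and 28.5, 24.7 and 19.8 in the 3-drug group. Its lowest libraries were those of JQ1 with paclitaxel and its highest a JQ1 library. CARS differed by −0.61 ± 0.17 (adjusted p = 0.0315, limma) and 0.69 ± 0.16 (adjusted p = 0.0115). LARS, for leucine, read 19.6 and 19.5 FPKM in the vehicle libraries, 22.3 and 20.4 under JQ1, 19.4 and 16.0 under JQ1 with anti-PD-L1, 12.4, 13.1 and 12.1 under JQ1 with paclitaxel, and 18.4, 17.6 and 13.0 under all 3 drugs. The JQ1 with paclitaxel libraries were low, and 3-drug replicate 3 was within their range. LARS fell by 0.60 ± 0.16 (adjusted p = 0.0245) and was 0.34 ± 0.15 higher on adding anti-PD-L1 (adjusted p = 0.124). TARS, for threonine, read 42.3 and 48.6 FPKM with vehicle, 46.0 and 52.2 with JQ1, 40.9 and 41.4 with JQ1 and anti-PD-L1, 35.4, 33.0 and 38.7 with JQ1 and paclitaxel, and 61.5, 51.8 and 52.0 in the 3-drug group. The 3-drug libraries were above all others but 1 JQ1 library, and JQ1 with paclitaxel was lowest without overlap. TARS was −0.34 ± 0.14 from vehicle under JQ1 with paclitaxel (adjusted p = 0.117, limma) and rose by 0.61 ± 0.13 on adding anti-PD-L1 (adjusted p = 0.00778). IARS, for isoleucine, ranged over 13.9 to 26.3 FPKM (median 20.6), WARS, for tryptophan, over 16.1 to 28.4 FPKM (median 22.0) and EPRS, for glutamate and proline, over 26.1 to 38.6 FPKM (median 29.4); none of the 3 passed a threshold. Besides those named above, PSPH overlaps Cct6a, AARS overlaps Ddx19b and WARS overlaps Wdr25 in the annotation.

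Averaged over groups, the members called for added anti-PD-L1 were nearly all higher, and most of those called for added paclitaxel were lower. Anti-PD-L1 added (the mean of both groups with it against the mean of the JQ1 groups without it) gave 12 of 38 members higher (31.6%, background 14.0%), TRIB3 among them, or 11 of 35 (31.4%) without CHAC1, SESN2 and TRIB3. The 2 parts of this average went opposite ways in the median difference of the 38 from the vehicle mean. It was 0.02 and 0.15 in the JQ1 libraries and −0.14 in both of JQ1 with anti-PD-L1. With paclitaxel it was −0.47, −0.50 and −0.45 without anti-PD-L1 and 0.31, 0.08 and 0.13 with it. SLC7A1 rose (0.80 ± 0.13, adjusted p = 0.00132, limma), and anti-PD-L1 lowered NUPR1 (−0.56 ± 0.13, adjusted p = 0.0099; 1 of 38, 2.63%, background 10.9%). Paclitaxel added gave 2 higher (5.26%, background 2.19%), CHAC1 and SESN2, both among the 3 genes given as a description, so that 0 of the other 35 rose. On average it lowered 4 (10.5%, background 1.37%; 4 of the 35, 11.4%). These were PCK2 (−0.54 ± 0.11, adjusted p = 0.0246), ALDH18A1 (−0.42 ± 0.09, adjusted p = 0.031), SLC7A5 (−0.42 ± 0.10, adjusted p = 0.0398) and MTHFD2 (−0.64 ± 0.16, adjusted p = 0.0463). In group means these falls lay between JQ1 and JQ1 with paclitaxel. MTHFD2 went from 26.3 to 8.90 FPKM, PCK2 from 10.1 to 3.99 and SLC7A5 from 101 to 50.7, and ALDH18A1 also fell. Between JQ1 with anti-PD-L1 and the 3-drug group, MTHFD2 went from 24.2 to 28.5, PCK2 from 6.69 to 7.19 and SLC7A5 from 62.1 to 68.3. ALDH18A1 was at 34.9 and 34.1 there. The calls for added paclitaxel were 0 without 3-drug replicate 2, JQ1 replicate 1, JQ1 replicate 2 or JQ1 with anti-PD-L1 replicate 1, 2 without replicate 2 of the latter and 3 without replicate 1 of JQ1 with paclitaxel. For added anti-PD-L1 7 members were called without replicate 1 of JQ1 with anti-PD-L1, 8 without its replicate 2 or JQ1 replicate 1, and 19 without replicate 3 of JQ1 with paclitaxel.

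Whether the difference on adding anti-PD-L1 was the same with paclitaxel as without it was tested as an interaction. An estimate above 0 is a more positive difference with paclitaxel, and can include a fall without it. None of the 38 members was called by limma, where 1 of 10780 genes was (0.00928%), and 27 had an unadjusted p under 0.05. Without CHAC1, SESN2 and TRIB3 these were 24 of 35 (68.6%), against 7.15% of all genes. AARS had the smallest p, at 1.46 ± 0.21 (adjusted p = 0.0533), followed by PCK2 at 1.24 ± 0.22, SLC7A5 at 1.12 ± 0.20, ASNS at 1.79 ± 0.33 and MTHFD2 at 1.72 ± 0.32 (each adjusted p = 0.162). The estimates were above 0 for 36 of 38 members, with a median of 0.78 against −0.01 over all genes. Without replicate 3 of JQ1 with paclitaxel 2 members were called. The interaction also uses the 3-drug libraries, so it is not free of how the list was chosen.

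Over all genes 5.29% rose and 12.3% fell under JQ1 with paclitaxel, and 9.09% rose and 6.79% fell on adding anti-PD-L1. These shares go with the counts of every list below, and no list was tested as a set. Upstream of ATF4, the eIF2 alpha kinases, the eIF2B subunits and the phosphatase regulators (14 genes, all tested) showed 0 rises and 2 falls under JQ1 with paclitaxel. The falls were EIF2B4 (−0.61 ± 0.16, adjusted p = 0.0223, limma) and EIF2B2 (−0.54 ± 0.15, adjusted p = 0.028), subunits of the exchange factor that recharges eIF2. None of the 14 was called on adding anti-PD-L1 by limma, and 0 had an unadjusted p under 0.05; the 2 of highest level, EIF2S1, the gene of eIF2 alpha, and PPP1R15A (GADD34), which recruits its phosphatase, differed by 0.36 ± 0.18 and 0.51 ± 0.32. Other ATF4 targets (23 of 24 tested) had 1 rise and 6 falls under JQ1 with paclitaxel. The mitochondrial folate enzyme MTHFD1L fell (−1.28 ± 0.21, adjusted p = 0.00174), as did the stress hormone GDF15 (−1.12 ± 0.22) and the autophagy receptor SQSTM1 (−0.86 ± 0.18), while the glutamine carrier SLC38A2 rose (1.24 ± 0.27, adjusted p = 0.00821). On adding anti-PD-L1 6 rose and 1 fell, with MTHFD1L (1.56 ± 0.18, adjusted p = 0.000458), GDF15 (1.10 ± 0.20), ADM2 (0.96 ± 0.18) and SQSTM1 (0.84 ± 0.16) the 4 of smallest p.

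Other enzymes of folate, serine, proline and glutamine metabolism (14 of 16 tested) had 0 rises and 3 falls under JQ1 with paclitaxel and 3 rises and 0 falls on adding anti-PD-L1. They were the folate enzymes SHMT1 (−1.42 ± 0.23, then 1.84 ± 0.20), MTHFD1 (−0.74 ± 0.15, then 0.81 ± 0.14) and MTHFD1L. Of the 8 other cytosolic synthetases 4 fell and then 2 rose, with VARS, for valine, at −0.76 ± 0.17 (adjusted p = 0.0097, limma) and 0.78 ± 0.15 (adjusted p = 0.00552), and FARSA, for phenylalanine, at −0.61 ± 0.17 and 0.59 ± 0.15. The other 2 that fell were FARSB (−0.47 ± 0.15) and HARS, for histidine (−0.50 ± 0.16). Of 13 tested mitochondrial synthetases TARS2 alone was called, at −1.14 ± 0.21 and then 0.92 ± 0.19. The ATF6 and XBP1 branches of the unfolded protein response (19 genes) had 2 rises and 4 falls under JQ1 with paclitaxel, led by the disulfide isomerase PDIA6 (−0.96 ± 0.17), DNAJB9 (1.27 ± 0.23), ERN1 (1.13 ± 0.21) and HERPUD1 (−0.85 ± 0.21), and then 1 rise, HERPUD1 (1.39 ± 0.19), and 1 fall, ERN1 (−0.64 ± 0.19).

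Several members answer to other regulators too. The lists for these are small. The shares over all genes were 5.29% up and 12.3% down under JQ1 with paclitaxel, then 9.09% up and 6.79% down. SESN2 is also a p53 target, and of 10 tested p53 targets 1 rose and 2 fell under JQ1 with paclitaxel, CDKN1A (0.71 ± 0.22), GTSE1 (−0.66 ± 0.18) and PHLDA3 (−0.59 ± 0.17). In that list 3 rose on adding anti-PD-L1: the death gene BBC3 (1.57 ± 0.25, adjusted p = 0.00246, limma), MDM2 (1.18 ± 0.28) and the cell cycle inhibitor CDKN1A (0.71 ± 0.20). DDIT4, STC2 and VLDLR also answer to hypoxia, whose 10 genes had 2 falls, ADM (−1.78 ± 0.34) and LDHA (−0.59 ± 0.18), and then 4 rises: NDRG1 (1.50 ± 0.30, adjusted p = 0.00673, limma), ADM (1.32 ± 0.30), EGLN3 (0.97 ± 0.27) and CAR9 (0.66 ± 0.17). SLC7A11 is also a target of NRF2, whose 10 genes had 3 rises and 1 fall, with GCLC (0.77 ± 0.20), TXNRD1 (0.74 ± 0.21) and NFE2L2 itself (0.89 ± 0.23) higher and GSR lower (−0.60 ± 0.15). It then had 0 calls by limma (1 gene at an unadjusted p under 0.05), with TXNRD1 at −0.41 ± 0.19 and HMOX1 at 0.26 ± 0.25. WARS is also induced by interferon gamma, whose 11 tested genes had 1 rise, GBP4 (1.51 ± 0.47), then 2, GBP3 (1.08 ± 0.23) and CXCL10 (0.81 ± 0.24). The 6 tested glucocorticoid targets, for DDIT4, had 2 falls, TSC22D3 (−1.86 ± 0.34) and DUSP1 (−1.02 ± 0.29), then KLF9 higher (1.30 ± 0.36) and FKBP5 lower (−0.52 ± 0.14).

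Cell makeup differed between libraries of the same groups. The 7 macrophage markers found, none at 0 in any CD45-negative library, summed to 953, 2570 and 877 FPKM in the 3 libraries of JQ1 with paclitaxel, to 527 and 858 with vehicle and to 1207, 1305 and 868 in the 3-drug group. The 7 leukocyte markers summed to 169, 511 and 184 under JQ1 with paclitaxel, 199 and 243 with vehicle and 450, 412 and 261 in the 3-drug group. Leukocyte marker sums were below both vehicle libraries in replicates 1 and 3 of JQ1 with paclitaxel and above them in replicate 2. The 5 epithelial markers summed to 385, 342 and 543 under JQ1 with paclitaxel, 503 and 885 with vehicle and 638, 529 and 759 in the 3-drug group. Replicates 1 and 2 of JQ1 with paclitaxel were thus below all vehicle and 3-drug libraries in epithelial sums. The 6 fibroblast markers summed to 1102 to 2569 under JQ1 with paclitaxel, 1977 to 2082 with vehicle and 1519 to 2218 in the 3-drug group. The 4 neutrophil markers summed to 8.06 to 10.4, 19.3 to 21.8 and 6.15 to 11.9, and the 4 erythroid markers to 0.646 to 2.19, 110 to 262 and 0.73 to 3.6, in the same order. Both sets were thus higher with vehicle than in these 2 paclitaxel groups. Under JQ1 with anti-PD-L1, neutrophil (56.2 and 51.7), macrophage (2417 and 1693.5) and leukocyte (560 and 408) sums were above both vehicle libraries. Its epithelial (366.5 and 496) and erythroid (67.4 and 20.1) sums were below them. Under JQ1, neutrophil sums were 31.4 and 14.8. Of 6 T cell markers, 5 were at 0 in at least 1 library of JQ1 with paclitaxel, with 3 at 0 in each of replicates 2 and 3. The part of cell makeup in the members' differences was not tested.

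In the 10 tumours with both fractions, 26 of 43 members had higher FPKM in CD45-negative cells in every tumour. In every tumour 1 member, CEBPB, was higher in CD45-positive cells. The same count was not made over all genes, so it does not set the members apart from other genes. The tables were normalised separately, so these levels are set side by side with no test. PHGDH had a median of 113 FPKM in CD45-negative and 6.39 in CD45-positive cells, ALDH18A1 35.1 and 4.51, ASNS 40.5 and 7.23, and SLC1A4 10.5 and 0.485. Members higher in CD45-positive cells by median were CEBPB (265 and 744), ATF3 (48.0 and 91.7), SLC3A2 (101 and 144), SLC7A11 (1.77 and 6.89), CEBPG (2.57 and 3.40), and, at levels under 1 FPKM, CTH and STC2. ATF4 stood at 196 and 121, and DDIT3 at 20.2 and 18.6. The plot of the fractions shows all 43.

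**Figure D5:**
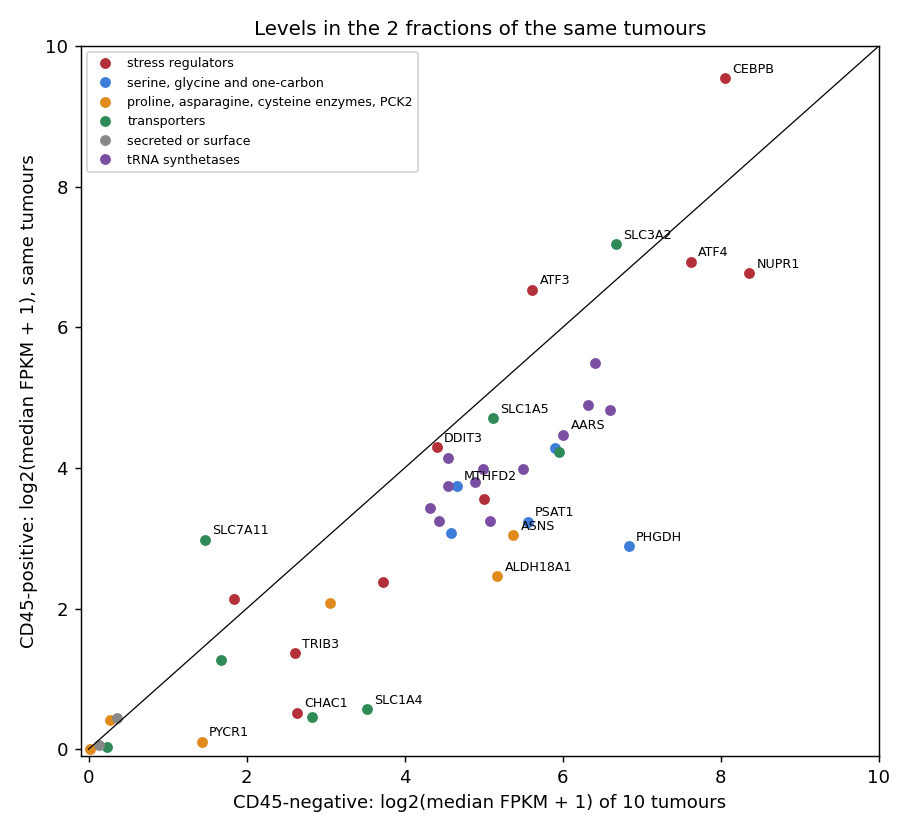
Median level of each of the 43 members in CD45-negative (horizontal) and CD45-positive cells (vertical) of the same 10 tumours, as log2(median FPKM + 1), coloured by role, with a line of equal level. Most points lie below the line, PHGDH and ALDH18A1 far below it, and CEBPB, ATF3, SLC3A2 and SLC7A11 lie above it.

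In CD45-positive leukocytes 36 members passed the filter (PYCR1, CTH, CBS, SLC7A3, SLC1A4, SLC6A9 and VLDLR did not), and no member was called by limma in any of the 8 comparisons over 10340 genes. The share of all genes called was 4.84% for JQ1 with paclitaxel against vehicle, 1.04% for JQ1, 0.029% for JQ1 with anti-PD-L1, 0.135% for the 3-drug group, 0.00967% on adding anti-PD-L1 to JQ1 with paclitaxel, 0.832% for added anti-PD-L1, 0.0387% for added paclitaxel and 0.0% for the interaction. At an unadjusted p under 0.05 the members numbered 11, 2, 3, 1, 10, 5, 2 and 5 in that order. Of all genes 21.3%, 19.7%, 7.11%, 8.73%, 12.9%, 18.7%, 9.45% and 10.3% were at that threshold, so the members' share was above it for JQ1 with paclitaxel and for anti-PD-L1 added to that pair, and below it for JQ1, the 3-drug group and both added drugs. Under JQ1 with paclitaxel the smallest p belonged to ASNS (−1.03 ± 0.28, adjusted p = 0.0743), SHMT2 (−0.86 ± 0.24, adjusted p = 0.0787) and PSAT1 (−0.70 ± 0.20, adjusted p = 0.0883). ASNS read 9.35 and 13.2 FPKM in the vehicle libraries, 6.65 and 7.57 under JQ1, 4.38 and 7.70 under JQ1 with anti-PD-L1, 5.00 and 4.92 under JQ1 with paclitaxel, and 8.36 and 6.88 under all 3 drugs. Its vehicle libraries were highest, and those of JQ1 with paclitaxel overlapped JQ1 with anti-PD-L1. On adding anti-PD-L1 MTHFD2 differed by 1.02 ± 0.22 (adjusted p = 0.15, limma), having read 11.1 and 14.4 FPKM in the vehicle libraries, 15.5 and 13.6 under JQ1, 9.61 and 9.93 under JQ1 with anti-PD-L1, 7.18 and 8.35 under JQ1 with paclitaxel, and 19.3 and 14.5 under all 3 drugs; JQ1 with paclitaxel was lowest and the 3-drug pair overlapped only JQ1.

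TRIB3 and CHAC1 were uneven between CD45-positive libraries of a group. TRIB3 read 1.53 and 2.35 FPKM in the vehicle libraries, 7.72 and 1.58 under JQ1, 0.409 and 1.41 under JQ1 with anti-PD-L1, 1.57 and 3.16 under JQ1 with paclitaxel, and 6.17 and 1.12 under all 3 drugs. CHAC1 read 0.224 and 1.61 FPKM in the vehicle libraries, 4.64 and 0.181 under JQ1, 0.157 and 0 under JQ1 with anti-PD-L1, 0.639 and 4.32 under JQ1 with paclitaxel, and 5.54 and 0.116 under all 3 drugs. SLC7A11 read 6.04 and 7.03 FPKM in the vehicle libraries, 13.3 and 3.69 under JQ1, 6.75 and 9.21 under JQ1 with anti-PD-L1, 3.59 and 25.5 under JQ1 with paclitaxel, and 13.4 and 0.968 under all 3 drugs. The same 3 libraries were high for all 3 genes: JQ1 replicate 1, JQ1 with paclitaxel replicate 2 and 3-drug replicate 1, while the partner library of each was lower. In the CD45-negative libraries of the same tumours, that of JQ1 with paclitaxel (replicate 3) had the highest CHAC1, TRIB3 and SLC7A11 of its group, at 26.7, 5.27 and 3.75 FPKM, but that of JQ1 was the lower of its pair for all 3 genes and that of the 3-drug group was highest of its group for none. ATF4 read 56.2 and 117 FPKM in the vehicle libraries, 157 and 121 under JQ1, 135 and 88.7 under JQ1 with anti-PD-L1, 149 and 149 under JQ1 with paclitaxel, and 120.3 and 79.9 under all 3 drugs, with vehicle replicate 1 lowest and both libraries of JQ1 with paclitaxel above the 3-drug pair. SESN2 read 6.27 and 8.32 FPKM in the vehicle libraries, 13.0 and 15.3 under JQ1, 13.0 and 7.86 under JQ1 with anti-PD-L1, 12.8 and 9.58 under JQ1 with paclitaxel, and 11.4 and 10.2 under all 3 drugs, with all but 1 treated library above both vehicle libraries; it differed by 0.88 ± 0.27 under JQ1 (adjusted p = 0.137, limma), and SLC7A5 by 1.02 ± 0.32 (adjusted p = 0.139).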

How the data were processed

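RNA of both sorted fractions of EMT6 tumours was sequenced after a low-input SMARTer kit, per the labels' protocols. STAR 2.5.1b and mm9 are named in the submitters' processing notes; how reads were turned into gene values, and whether by strand, is not given in the sources used here. What the authors deposited was 1 table of gene values per fraction, taken here as FPKM from the values, although a label speaks of counts; no columns were left out (0). Absolute depth is unknown, so no intervals or floors are given; relative depth came from the steps between low values. The 43 members and all gene lists were chosen with earlier results of these data known.

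Each fraction was fitted apart, with its 5 groups in 1 model (limma 3.58.1 in R 4.3.3, with a mean-variance trend, 2-sided) on log2(FPKM + 1), keeping genes of at least 1 FPKM in at least 2 libraries; a call was a Benjamini-Hochberg adjusted p under 0.05 over all genes kept. The fit was tested on simulated data. The fractions were normalised separately and not tested against each other. Libraries of a group that share a mouse code were treated as replicates, and p-values may then measure spread within an animal or technical spread; 1 value per mouse code was an alternative. Values by library are given for members called in any comparison and for ATF4, DDIT3, TRIB3, CHAC1, SESN2 and ASNS, and other members by range. Of each other list, called genes are named, at most 4 by smallest p, or else the 2 of highest level. Promoter stretches are those of smallest p among members with values by library that hold the motif, at most 8. Alternatives were pseudocounts of 0.1 and 5, other filters (none, 5 FPKM), median-ratio and quantile scaling, no trend, depth as covariate, and each library left out. Python 3.11.15 with pandas 2.3.3, numpy 2.4.6 and matplotlib 3.10.9 served for tables and figures.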

Additional observations from a re-analysis of the deposited data

Results flagged for a closer look

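For LARS, the leucyl-tRNA synthetase, the 3-drug group lay on opposite sides of vehicle in the fractions: −0.26 (log2) in CD45-negative cells, with every 3-drug library below the vehicle libraries, and 0.34 in CD45-positive cells, with every one above. For DDIT3, anti-PD-L1 added to JQ1 with paclitaxel gave 0.26 in CD45-negative and −0.27 in CD45-positive cells, again with no overlap of libraries in either. These differences between fractions were not tested, since each fraction has its own table. Groups of 2 or 3 libraries were too small to look for single outlying libraries.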

How the results depend on the processing

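No result changed direction under any alternative run. The members called for anti-PD-L1 added to JQ1 with paclitaxel numbered between 19 and 24 when each library was left out. Each of these fits kept at least 19 of the 22 main calls, not always the same genes by this count. Under all other settings the number stayed within 1.5 times of 22. With 1 value per mouse code, calls in CD45-negative cells went from 4 to 0 for JQ1, from 18 to 3 for JQ1 with paclitaxel, from 3 to 1 for the 3-drug group, from 13 to 4 for added anti-PD-L1 and from 6 to 0 for added paclitaxel; this setting leaves fewer samples. With depth as a covariate, 1 member was called for JQ1, 8 for added anti-PD-L1 and 1 for the interaction. A pseudocount of 0.1 and no filter on low values each left 1 for the 3-drug group, and no filter left 2 and no mean-variance trend 3 for added paclitaxel. Median-ratio scaling and quantile normalization each gave 1 for the interaction. The causes were not tested. Leaving out each library gave 1 to 4 calls for JQ1, 8 to 19 for JQ1 with paclitaxel, 0 to 4 for the 3-drug group, 7 to 19 for added anti-PD-L1, 0 to 5 for added paclitaxel and 0 to 2 for the interaction. In CD45-positive cells it gave 0 to 1 for JQ1 with paclitaxel and 0 to 1 for added anti-PD-L1. Of 66 single-gene calls, 29 were kept with 1 value per mouse code, 55 with depth as a covariate, 54 with no filter and 56 to 66 under the other settings that changed the values or the fit. No paired analysis was possible because the treatment groups compared share no animal, and replicate numbers, given in accession order, only name samples; tumour codes pair the fractions, which were not tested against each other. Depth limits genes near 1 FPKM such as PYCR1 and SLC7A1.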
